A study of Arabidopsis thaliana with 15 samples.

Results

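The genes described here make or remove hydrogen peroxide in Arabidopsis: 5 NADPH oxidase genes (RBOHA, AT5G07390; RBOHB, AT1G09090; RBOHC, AT5G51060; RBOHD, AT5G47910; RBOHF, AT1G64060), 2 cytosolic ascorbate peroxidase genes (APX1, AT1G07890; APX2, AT3G09640) and the 3 catalase genes (CAT1, AT1G20630; CAT2, AT4G35090; CAT3, AT1G20620). They were chosen by name, as a list of 10 genes, and 9 of the 10 were among the 18934 genes of the gene table; RBOHA was not in it and was not analysed here. Those 9 genes were covered by 28 of the 26677 tag clusters (TCs, groups of neighbouring transcription start sites on a strand), and 2 further TCs lay on the opposite strand, inside RBOHD or just upstream of APX1.

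Transcripts were counted by cap analysis of gene expression (CAGE), in which each tag marks the capped 5′ end of an RNA, in whole seedlings of ecotype Col-0 treated with flg22, a peptide of bacterial flagellin that is sensed by a receptor kinase and sets off pattern-triggered immunity. The comparisons ask how transcription starts change between the early times of the response and whether the nuclear exosome, which degrades RNA from its 3′ end, has a part in it. All groups were 14 days old: after 12 days of growth and 48 h in liquid medium they received 3.3 µM flg22 in DMSO. Wild type (wt) and hen2-4 seedlings were taken after 10 and 30 min and rrp4-2 seedlings after 30 min, with 3 libraries in each of the 5 groups, 15 in all. The mutant hen2-4 is a T-DNA line of HEN2, an RNA helicase that hands nuclear transcripts to the exosome, and rrp4-2 is a hypomorphic allele of RRP4, a core exosome subunit. Each library came from a separately treated pool of 10 seedlings, and every group had received flg22, so a change from 10 to 30 min is a change within the response and cannot be told apart from any other effect of the further time in the medium.

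NADPH oxidases of the RBOH family sit in the plasma membrane and pass electrons from NADPH to oxygen outside the cell, which yields superoxide and then hydrogen peroxide. RBOHD is the oxidase behind the burst that follows flg22 within minutes, and it is switched on by phosphorylation and calcium, so the burst itself needs no new transcript. Catalases break down hydrogen peroxide in peroxisomes, where photorespiration makes it, and ascorbate peroxidases reduce it with ascorbate in the cytosol and other compartments.

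The libraries held between 13904125 and 24753128 tags in genes. The level of HEN2 at 10 min was 42.4 ± 6.8 CPM (SD, n = 3) for wt and 9.79 ± 0.71 CPM for hen2-4, and at 30 min it was 44.4 ± 11.5 and 6.35 ± 2.03 CPM, where CPM is tags per 1000000 on library sizes scaled by the trimmed mean of M values. RRP4 stood at 21.2 ± 2.0 CPM in rrp4-2 and 18.2 ± 4.1 CPM in wt at 30 min, which checks nothing for a hypomorphic allele. The 4 shoot markers summed to between 7302 and 15260 CPM in every library, and the 2 flower markers were not in the table.

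Upstream sequence of APX2, APX1, CAT2 and RBOHD is given first. These are bases in front of the starts whose tags are counted below. The levels of these genes changed with time in both genotypes by the test given below. RBOHC changed with time in wt only, and its window was searched but is not printed. Windows of 250 bases before the upstream edge of each gene's main TC were read from the RefSeq TAIR10.1 assembly, whose nuclear chromosomes have the lengths of the TAIR10 build of the files, and were searched on both strands for the W-box core TTGAC (bound by WRKY factors), heat shock element pairs (GAANNTTC or its mirror form TTCNNGAA), the G-box with the letters CACGTG, the box with the letters CGCGTT that calmodulin-binding activators recognise, and the evening element with the letters AAAATATCT. Capitals mark these motifs. The APX2 window (chr3:2955903-2956152, plus strand) and the APX1 window (chr1:2437010-2437259, plus strand) end just before their TCs, and the CAT2 window (chr4:16703505-16703679, minus strand) is shown only up to the annotated gene.
APX2: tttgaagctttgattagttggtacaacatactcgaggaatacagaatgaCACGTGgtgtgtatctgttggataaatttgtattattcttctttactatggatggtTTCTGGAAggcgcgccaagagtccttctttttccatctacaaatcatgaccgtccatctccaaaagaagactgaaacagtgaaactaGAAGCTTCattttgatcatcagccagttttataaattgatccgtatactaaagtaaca
APX1: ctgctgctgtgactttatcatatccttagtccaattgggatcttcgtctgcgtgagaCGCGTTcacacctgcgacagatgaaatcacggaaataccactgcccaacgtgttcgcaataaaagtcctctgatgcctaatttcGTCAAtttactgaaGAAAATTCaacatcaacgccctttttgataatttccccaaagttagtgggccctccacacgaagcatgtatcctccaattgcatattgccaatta
CAT2: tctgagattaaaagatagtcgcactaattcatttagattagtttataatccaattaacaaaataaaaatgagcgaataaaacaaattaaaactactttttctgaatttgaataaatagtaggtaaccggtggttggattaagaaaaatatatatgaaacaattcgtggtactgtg

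The RBOHD window lies inside the annotated 5′ UTR, so only its 3 matches to the W-box core are shown, each with up to 8 bases on either side, at chr5:19397108-19397128, chr5:19397266-19397286 and chr5:19397293-19397310 on the plus strand.
RBOHD match 1: ctcggtgtTTGACataactcg
RBOHD match 2: aaaaaaaaGTCAAaataaatg
RBOHD match 3: aaaggattTTGACcagac

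RBOHD and RBOHB each held 3 W-box cores and RBOHF held 2, against 2 or more in 14.2% and at least 1 in 45.9% of 18784 windows of tested genes. APX2 and CAT1 held 2 heat shock pairs, and APX1 and CAT2 held 1, against at least 1 in 15.9% of windows. The CAT2 pair and its single W-box core fell in the part of the window inside the gene, which is not printed. The G-box of APX2 has a match in 8.61% of windows, the CGCGTT of APX1 in 3.33%, and the evening element found 56 bases before the CAT3 TC in 2.5%. The RBOHC window held none of these letters. No motif matches overlapped in the printed windows, and a match describes letters only.

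Because a CAGE tag counts a 5′ end whatever the length of the RNA, levels can be compared between genes without a length term. APX1 led in all 5 groups, with a mean CPM of 1215 in wt at 10 min and of 2959 in hen2-4 at 30 min, although its libraries overlapped those of CAT3 in hen2-4 at 10 min. Over the 15 libraries the median level was 849 CPM for CAT3, 425 CPM for CAT2 and 279 CPM for CAT1. Among the oxidases it was 97.2 CPM for RBOHD, 13.1 CPM for RBOHC, 11.2 CPM for RBOHF and 3.25 CPM for RBOHB. The libraries of CAT2 and CAT3 overlapped in wt at 10 min, those of RBOHC and RBOHF in wt at 10 min and in hen2-4 at both times, those of CAT1 and CAT2 in wt and hen2-4 at 30 min, those of APX2 and RBOHB in the same groups, and those of CAT1 and RBOHD in rrp4-2. The other neighbours in the order did not overlap, apart from APX1 and CAT3 as above. APX2 ranged from 0 to 6.96 CPM and was the lowest of the 9 in wt at 10 min.

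**Figure D1:**
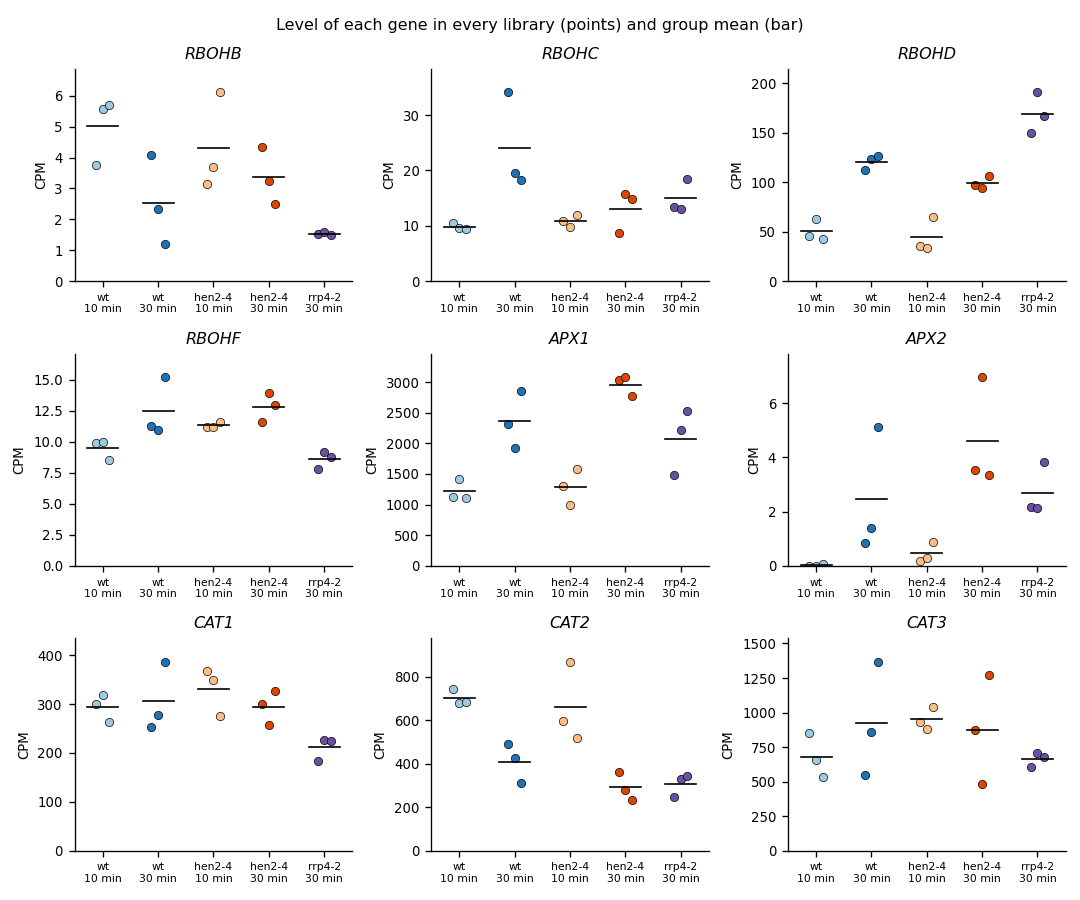
Level of each of the 9 genes in CPM (tags per 1000000 on scaled library sizes, linear axis from 0) in every library. Points are libraries, bars are means of 3; RBOHD and APX1 are higher and CAT2 is lower in each 30 min library of wt and hen2-4 than in any 10 min library of the same genotype.

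From 10 to 30 min of flg22, RBOHD, APX1 and APX2 rose and CAT2 fell in both wt and hen2-4, RBOHC rose in wt, and RBOHB, RBOHF, CAT1 and CAT3 did not pass in either genotype. Each comparison was tested by edgeR's quasi-likelihood test across all genes, with Benjamini-Hochberg adjustment, and a gene is said here to rise or fall at an adjusted p of at most 0.05. In wt, 4 of the 9 genes rose and 1 fell, while 12.2% of the 18879 tested genes rose and 7.72% fell. In hen2-4, 3 rose and 1 fell, while 12% of all tested genes rose and 9.83% fell. With the further limit of a log2 change of at least 1, which the study also set, 3 genes were higher in wt (RBOHC, RBOHD and APX2) against 7.55% of all genes, and 0 were lower against 3.63%. In hen2-4, 3 were higher under that limit (RBOHD, APX1 and APX2) against 6% of all genes, and CAT2 was lower against 5.31%. The median log2 change of the 9 was 0.44 in wt and 0.18 in hen2-4, beside 0.01 and -0.00 over all genes.

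RBOHD, the immune oxidase, stood at 45.4, 62.8 and 42.3 CPM in the 3 wt libraries at 10 min and at 112, 123 and 126 CPM at 30 min. In hen2-4 it stood at 35.0, 33.6 and 64.5 CPM at 10 min and at 97.2, 93.6 and 106 CPM at 30 min. The 2 times did not overlap in either genotype, and the single high library at 10 min, hen2-4 replicate 3, still lay below every library at 30 min. The log2 change was 1.27 ± 0.22 in wt (SE; edgeR adjusted p = 0.000756) and 1.16 ± 0.22 in hen2-4 (adjusted p = 0.00186), or 2.40-fold and 2.23-fold. The change in hen2-4 minus that in wt was -0.11 ± 0.31 on the log2 scale (adjusted p = 0.975). Without hen2-4 replicate 2 at 10 min the hen2-4 change was 0.99, just under a doubling (edgeR adjusted p = 0.0132).

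RBOHC, which root hairs need to grow, was level across the 10 min libraries and higher at 30 min in wt. It stood at 10.5, 9.66 and 9.41 CPM in wt at 10 min and at 34.1, 19.6 and 18.2 CPM at 30 min. In hen2-4 it stood at 10.9, 9.78 and 11.9 CPM at 10 min and at 8.64, 15.7 and 14.8 CPM at 30 min, and in rrp4-2 at 13.5, 13.1 and 18.4 CPM. The wt times did not overlap, the hen2-4 times did, and wt replicate 1 at 30 min was the highest library of all. The log2 change was 1.28 ± 0.25 in wt (edgeR adjusted p = 0.00193) and 0.27 ± 0.25 in hen2-4 (adjusted p = 0.471), and the difference between them, -1.01 ± 0.36, had an unadjusted p of 0.0125 and an adjusted p of 0.868. Without wt replicate 1 at 30 min the wt change was 0.94 (edgeR adjusted p = 0.00938). The summed level of 4 root hair markers ran from 47.3 to 74.7 CPM in wt at 10 min and from 21.3 to 43.3 CPM at 30 min. With time in wt, 0 of 4 were higher and 2 of 4 (PRP3 and COBL9) lower by the test. In hen2-4 the sum ran from 36.4 to 47.3 CPM at 10 min and from 38.7 to 41.55 CPM at 30 min, with 0 higher and 0 lower. In rrp4-2 it ran from 14.5 to 16.9 CPM, and 2 of 4 (EXPA7 and PRP3) were lower than in wt (log2 -1.22 and -0.94, edgeR adjusted p = 0.0303 and 0.0372). Both rrp4-2 calls were lost on leaving out single libraries (up to 0.115 and 0.118). The 2 root markers summed to between 411 and 820 CPM in wt at 10 min, 253 and 445 CPM in wt at 30 min, 275 and 356 CPM in hen2-4 at 10 min, 223 and 262 CPM in hen2-4 at 30 min and 176 and 295 CPM in rrp4-2, and 1 of 2 (PYK10) was lower with time in wt (log2 -0.79, edgeR adjusted p = 0.05). The wt calls of COBL9 and PYK10 were lost on leaving out single libraries, with edgeR adjusted p up to 0.132 and 0.267. The part of these root hair and root markers in the RBOHC values was not tested. In these bulk libraries, fewer cells of a type and less RNA per cell cannot be told apart.

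RBOHF and RBOHB showed no change with time that passed by edgeR. RBOHF, an oxidase with roles in stomata and in the endodermis, ranged from 7.79 to 15.2 CPM over all libraries, with a log2 change of 0.39 ± 0.16 in wt (edgeR adjusted p = 0.0998). RBOHB, known from seeds, ranged from 1.21 to 6.11 CPM, with a log2 change of -0.97 ± 0.37 in wt (adjusted p = 0.0781) and -0.37 ± 0.37 in hen2-4 (adjusted p = 0.495). In wt at 30 min RBOHB ran from 1.21 CPM in replicate 3 to 4.08 CPM in replicate 1, which reached into the range at 10 min. The wt change of RBOHB passed under 5 of 24 alternatives, among them DESeq2 (-0.99, adjusted p = 0.044), limma-trend on log2(TPM + 1) (-1.02, adjusted p = 0.0204) and leaving out wt replicate 1 at 30 min (-1.50, edgeR adjusted p = 0.0108).

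Together the 4 measured oxidase genes summed to 74.5 ± 11.9 CPM (SD, n = 3) in wt at 10 min and 160 ± 3 CPM at 30 min. RBOHD made up 66.9 ± 3.9% of that sum in wt at 10 min and 75.6 ± 5.4% at 30 min, and 61.4 ± 6.2% and 77.2 ± 2.9% in hen2-4. In rrp4-2 at 30 min its share was 87.0 ± 1.8%, and the lowest rrp4-2 library, at 85.3%, lay above the highest of the other 12, at 79.8%.

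**Figure D2:**
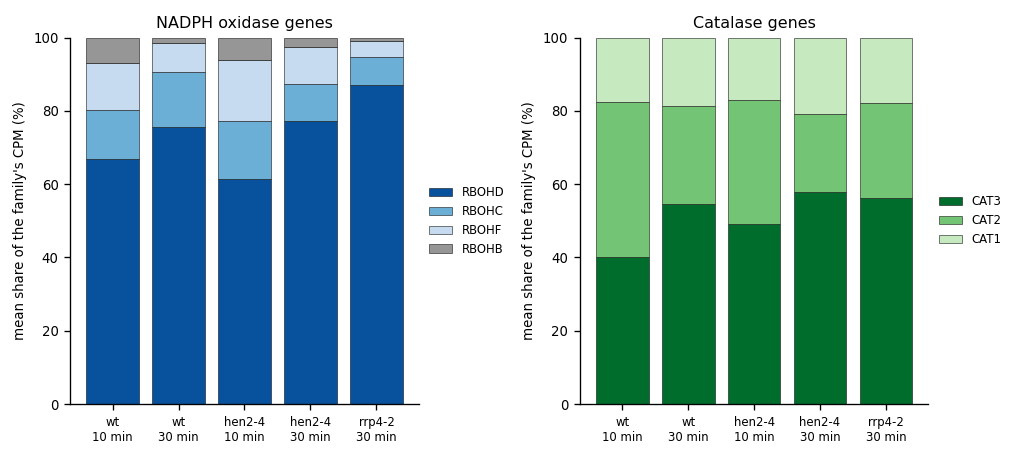
Mean share of each gene in the summed CPM of the 4 measured NADPH oxidase genes (left) and of the 3 catalase genes (right), in percent, by group (3 libraries each). RBOHD holds between 61.4% and 87.0% of the oxidase tags, and the CAT2 share of the catalase tags goes from 42.1% to 26.7% between the wt groups.

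APX1, the main cytosolic ascorbate peroxidase, rose about 2-fold from an already high level. It stood at 1130, 1410 and 1107 CPM in wt at 10 min and at 2318, 1930 and 2849 CPM at 30 min. In hen2-4 it went from 1298, 995 and 1576 CPM to 3025, 3079 and 2773 CPM, and the times did not overlap in either genotype. The rrp4-2 libraries held 1482, 2222 and 2531 CPM, of which replicate 1 lay below every wt library at 30 min. The log2 change was 0.96 ± 0.22 in wt (edgeR adjusted p = 0.00557) and 1.20 ± 0.22 in hen2-4 (adjusted p = 0.0013). Leaving out replicate 2 of wt at 10 min or at 30 min gave 1.08 and 1.09 in wt.

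APX2, an ascorbate peroxidase known to respond to heat and excess light, was nearly silent at 10 min in wt and present at 30 min. Its tags numbered 0, 0 and 1 in wt at 10 min and 16, 25 and 93 at 30 min. In hen2-4 they numbered 3, 6 and 19 at 10 min and 52, 152 and 75 at 30 min, and in rrp4-2 41, 46 and 77. In wt and in hen2-4, every 30 min library held more CPM than every 10 min library, and wt replicate 3 at 30 min held 5.13 CPM beside 0.838 and 1.38 CPM. Pooling each group, 134 tags against 1 gives a rate ratio of 152 in wt, with an exact conditional 95% interval from 26.8 to 6037 that covers counting error only, and 279 against 28 tags gives 9.72 in hen2-4 (6.58 to 14.9). The fitted log2 change was 6.77 ± 1.10 in wt, a value that rests on the prior count (edgeR adjusted p = 0.000375), and 3.27 ± 0.68 in hen2-4 (adjusted p = 0.00311). It was 8.61 without wt replicate 3 at 10 min and 5.63 without wt replicate 3 at 30 min, and in hen2-4 4.16 without replicate 3 at 10 min. HSFA2, a heat shock factor known to act on APX2, stood at 13.9, 21.1 and 60.9 CPM in the same wt libraries at 30 min, where replicate 3 was again the highest. In hen2-4 at 30 min APX2 was highest in replicate 2 and HSFA2 in replicate 3 (20.7 CPM), and in rrp4-2 APX2 was highest in replicate 3 and HSFA2 in replicate 2 (19.1 CPM).

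**Figure D3:**
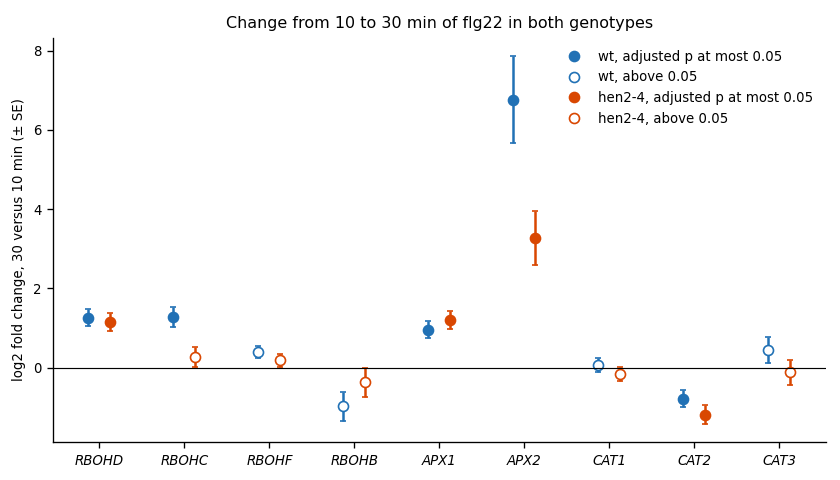
Fitted log2 fold change from 10 to 30 min of flg22 (points) with its standard error (bars) for the 9 genes in wt and hen2-4; filled points have an adjusted p of at most 0.05. APX2 stands far above the rest at 6.77 in wt and 3.27 in hen2-4, and the filled points below 0 are those of CAT2.

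CAT2, the leaf catalase that removes photorespiratory hydrogen peroxide, was the gene of the list that fell. It stood at 743, 677 and 683 CPM in wt at 10 min and at 491, 425 and 310 CPM at 30 min. In hen2-4 it went from 599, 869 and 518 CPM to 363, 279 and 232 CPM, and rrp4-2 held 248, 331 and 342 CPM. All 30 min libraries of these 3 genotypes lay below all 10 min libraries. The log2 change was -0.78 ± 0.23 in wt (edgeR adjusted p = 0.0238) and -1.18 ± 0.23 in hen2-4 (adjusted p = 0.00182), or 0.583-fold and 0.440-fold. The wt call did not hold without wt replicate 1 at 10 min (-0.74, edgeR adjusted p = 0.068), without replicate 3 at 10 min (-0.80, adjusted p = 0.053) or without replicate 3 at 30 min (-0.62, adjusted p = 0.0865), and the hen2-4 change was -0.94 without its replicate 2 at 10 min (adjusted p = 0.0124). The summed shoot markers ran from 11740 to 15260 CPM in wt at 10 min and from 9508 to 13590 CPM at 30 min. In hen2-4 they ran from 9476 to 14640 CPM at 10 min and from 7302 to 10660 CPM at 30 min. Their median log2 change was -0.36 in wt and -0.61 in hen2-4, with 1 of 4 (LHCB2.1) lower by the test in each genotype. The part of these shoot markers in the CAT2 values was not tested. The wt call of LHCB2.1 was lost without wt replicate 3 at 10 min or replicate 1 at 30 min (edgeR adjusted p = 0.0983 and 0.0622).

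CAT3 and CAT1 lie next to each other on chromosome 1 in the same direction, 95 bases apart. CAT3 ranged from 479 to 1366 CPM over all libraries and its 10 and 30 min libraries overlapped in both genotypes. In wt it stood at 849, 658 and 534 CPM at 10 min and at 551, 858 and 1366 CPM at 30 min. Its log2 change was 0.44 ± 0.32 in wt (edgeR adjusted p = 0.369) and -0.12 ± 0.32 in hen2-4 (adjusted p = 0.822), and the latter was 0.18 without hen2-4 replicate 2 at 30 min. CAT1 was steadier, from 183 to 386 CPM, with log2 changes of 0.06 ± 0.18 in wt, whose sign turned under 5 of 24 alternatives, and -0.17 ± 0.18 in hen2-4. The 3 catalases summed to 1675 ± 207 CPM in wt at 10 min and 1639 ± 389 CPM at 30 min, with the CAT2 share at 42.1 ± 3.6% and then 26.7 ± 11.5%, and the CAT3 share at 40.3 ± 4.4% and 54.6 ± 11.9%.

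In a direct comparison of the genotypes, none of the 9 genes passed the test at the gene level. The count was 0 of 9 for hen2-4 against wt at 10 min, where 1.58% of all genes passed in either direction, and 0 at 30 min, where 1.31% passed. It was 0 for rrp4-2 against wt, where 4.33% passed, 0 for rrp4-2 against hen2-4, where 0.392% passed, and 0 for the difference of the time changes, where 0% passed. At an unadjusted p below 0.05 the edgeR counts in the same order were 1, 2, 4, 5 and 2, limma voom gave 0 in each at the adjusted limit, and DESeq2 gave 1 (APX2), 1 (RBOHC), 1 (RBOHF), 2 (RBOHD and RBOHF) and 0. Values were not flat: RBOHD was higher in rrp4-2, at 150, 191 and 166 CPM, than in every other library, with a log2 difference of 0.49 ± 0.22 from wt (edgeR adjusted p = 0.245) and of 0.77 ± 0.22 from hen2-4 (adjusted p = 0.155). RBOHF stood at 7.79, 9.21 and 8.82 CPM in rrp4-2, below each wt library at 30 min (11.3, 10.9 and 15.2 CPM), with a log2 difference of -0.54 ± 0.16 (adjusted p = 0.0745). CAT1 in rrp4-2, at 183, 226 and 226 CPM, lay below the wt libraries at 254, 279 and 386 CPM, with -0.53 ± 0.18 (adjusted p = 0.112). APX2 held 28 tags in hen2-4 at 10 min against 1 in wt, a rate ratio of 30.5 with an exact conditional 95% interval from 5.04 to 1247 for counting error (edgeR adjusted p over the libraries = 0.133).

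At the level of single TCs, 8 of the 9 genes started from a single main cluster, and RBOHF had 2 that each reached the 10% limit (10% of all RBOHF tags in 3 or more libraries). The RBOHD TC had its midpoint 395 bp downstream of the annotated 5′ end and 149 bp before the start codon, in exon 1, so the annotated leader is longer than the one these tags mark. The RBOHF TCs lay 338 and 435.5 bp downstream of its annotated end. The APX2 TC, 9 bp wide, sat 1 bp from the annotated start, the RBOHC TC 36.5 bp downstream and the RBOHB TC 13.5 bp upstream. The main clusters of CAT1, CAT2, CAT3 and APX1 took a median of 98.8%, 96.0%, 98.0% and 99.3% of their gene's tags. The other 18 of the 28 TCs lay further inside CAT1, CAT2, CAT3 and APX1 and were each under 2.1% of the gene's tags in every library. Of all 28, 16 had their midpoint in a coding exon of the annotation.

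**Figure D4:**
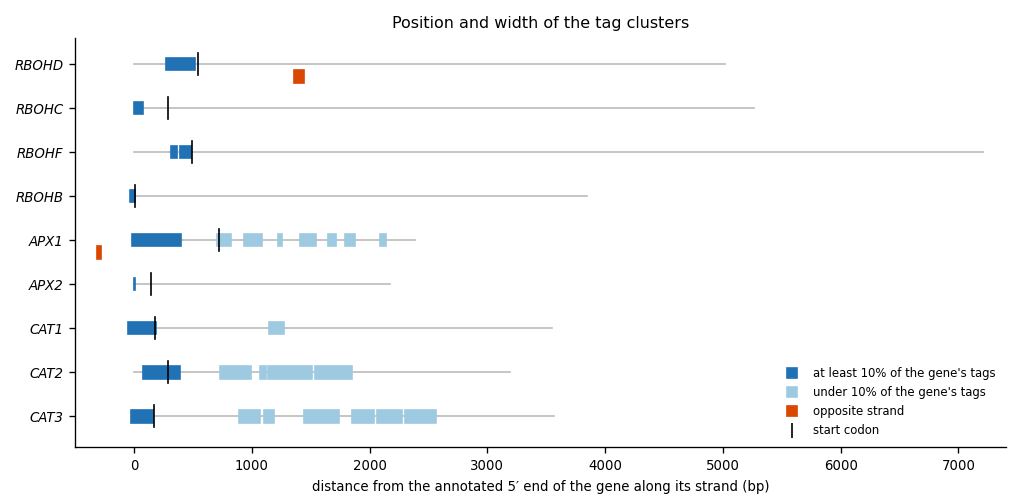
Position and width of the TCs along each gene, as distance in bp from the annotated 5′ end (grey line, annotated gene; black tick, start codon; dark blue, at least 10% of the gene's tags; light blue, less; orange, opposite strand). The RBOHD TC is centred 395 bp inside its annotated gene, and APX1, CAT2 and CAT3 carry several minor TCs in the gene body.

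The main TCs moved with their genes. In wt, 7 of the 28 TCs rose with time and 5 fell, against 11.5% and 7.28% of the 26504 TCs tested. In hen2-4, 7 rose and 8 fell, against 12.1% and 9.25%. Those that rose in wt were the TCs of RBOHD, RBOHC and APX2 and 4 of the 8 TCs of APX1, and those that fell were 4 of the 5 TCs of CAT2 and 1 TC of CAT3. All 4 CAT2 TCs that fell in wt also fell in hen2-4, and those at 1094.5 and 863.5 bp, both in coding exons, had log2 changes in hen2-4 of -2.42 ± 0.38 and -1.78 ± 0.29 (edgeR adjusted p = 0.000352 and 0.000479), beside -1.13 ± 0.23 for the main TC (adjusted p = 0.00229). Of the CAT2 TCs, the one at 1325 bp lost its hen2-4 call without replicate 2 at 10 min (adjusted p = 0.0598), and in wt those at 863.5 and 1094.5 bp lost theirs on leaving out any of 5 and 4 libraries, with adjusted p up to 0.1 and 0.0914. The main CAT2 TC lost its wt call without replicate 1 at 10 min (0.0742) or replicate 3 at 30 min (0.0924), and with only the compared groups (0.0501). In hen2-4 the minor APX1 TCs at 763.5, 1476 and 1833 bp rose, and the one at 2113 bp fell (log2 -1.73, edgeR adjusted p = 0.0349). Leaving out single libraries removed the wt calls of the minor APX1 TCs at 1007.5 and 1476 bp (adjusted p up to 0.128 and 0.0928) and the hen2-4 calls at 763.5, 1476, 1833 and 2113 bp (up to 0.128, 0.136, 0.0851 and 0.191). It also removed the hen2-4 calls of the CAT3 TCs at 1946.5 and 2167.5 bp, which were falls (up to 0.142 and 0.0621). Of 9 other settings, 5 and 4 removed the wt calls of the APX1 TCs at 1007.5 and 1476 bp, 8 and 3 the hen2-4 calls at 1476 and 763.5 bp, and the replicate block removed that of the CAT3 TC at 1946.5 bp (0.0524). The downstream RBOHF TC rose in hen2-4, from 1.25, 1.69 and 1.64 CPM to 2.86, 3.51 and 2.80 CPM, a log2 change of 1.00 ± 0.31 (edgeR adjusted p = 0.0323), while the upstream one changed by 0.03 ± 0.16. The rise was past the limit only with all 6 hen2-4 libraries: leaving out any of them gave an adjusted p between 0.0555 and 0.115, and it was lost under 3 of 9 other settings (0.0658 to 0.0836). The test of relative use within RBOHF gave a log2 difference of 0.95 (limma diffSplice adjusted p = 0.0549), and RBOHF was the only one of these genes with more than 1 TC at the 10% limit, so only its TC use was tested there, with 0 calls in any comparison.

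Between genotypes, few single TCs passed the test, and nothing particular to these genes is read from the counts. Against wt, 1 of the 28 TCs was higher in hen2-4 at 10 min and 0 were lower (5.51% and 0.789% of all TCs), 1 was higher and 1 lower at 30 min (5.16% and 0.675%), and 2 were higher and 1 lower in rrp4-2 (7.53% and 2.43%). Between rrp4-2 and hen2-4 the count was 0 (0.291% of all TCs), with 6 at an unadjusted p below 0.05 by edgeR and 1 by DESeq2 at the adjusted limit. For the difference of the time changes it was 0 (0.00377%), with 4 at an unadjusted p below 0.05 and 0 by DESeq2. The 2 lower TCs were the RBOHC TC in hen2-4 at 30 min (log2 -0.89 ± 0.25, edgeR adjusted p = 0.046) and the upstream RBOHF TC in rrp4-2 (-0.66 ± 0.16, adjusted p = 0.0169). The RBOHC call was lost on leaving out any of 13 libraries, with adjusted p up to 0.246 without wt replicate 1 at 30 min, and under 6 of 9 other settings (0.0524 to 0.239). The RBOHF call was lost without wt replicate 3 (0.0662), rrp4-2 replicate 1 (0.0589) or rrp4-2 replicate 3 (0.0679), with limma-trend on log2(TPM + 1) (0.0537) and with only the compared groups (0.133).

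A minor TC in the body of CAT3 was higher in hen2-4 at both times and in rrp4-2, while the main CAT3 TC did not pass in any of these comparisons. It lies at chr1:7144079-7144156 on the plus strand, 1145.5 bp from the annotated 5′ end, where 4 of the 6 annotated transcripts have an intron and 2 have a non-coding stretch of exon 1. It held 2.84, 3.82 and 3.04 CPM in wt at 10 min and 8.95, 10.4 and 10.1 CPM in hen2-4. At 30 min it held 1.40, 1.74 and 2.11 CPM in wt, 5.52, 5.48 and 3.74 CPM in hen2-4 and 2.69, 3.31 and 3.47 CPM in rrp4-2. The mutant libraries lay above all wt libraries of the same time. The log2 differences were 1.60 ± 0.22 at 10 min (edgeR adjusted p = 0.000217) and 1.48 ± 0.23 at 30 min (adjusted p = 0.000654) for hen2-4, and 0.85 ± 0.24 for rrp4-2 (adjusted p = 0.0299). The rrp4-2 call was lost without wt replicate 1 (0.0998) or 2 (0.066) or rrp4-2 replicate 2 (0.0883) or 3 (0.0879) at 30 min, and with limma voom (0.055) or only the compared groups in the fit (0.161). With time this TC fell in both genotypes, by 0.89 and 1.00 on the log2 scale (adjusted p = 0.0146 and 0.00421), and in wt that call was lost without replicate 2 at 10 min (0.0668) or replicate 1 at 30 min (0.0564), or with only the compared groups (0.0879).

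Near the 3′ end of APX1, a TC at chr1:2439367-2439421, intronic in 7 of 8 transcripts, was higher in rrp4-2 than in wt. It held 1, 4 and 1 tags in wt at 30 min, 10, 17 and 15 in rrp4-2 and 4, 8 and 10 in hen2-4. At 10 min it held 4, 6 and 11 tags in wt and 17, 40 and 16 in hen2-4, so it was rare everywhere, at no more than 0.201% of APX1 tags. In CPM, each mutant library lay above every wt library of the same time. The margin was narrow, with a lowest hen2-4 value of 0.728 and a highest wt value of 0.712 CPM at 10 min. The log2 difference of rrp4-2 from wt was 2.55 ± 0.68 (edgeR adjusted p = 0.0254), and those of hen2-4 were 1.75 ± 0.55 at 10 min (adjusted p = 0.0823) and 1.68 ± 0.73 at 30 min (0.261). The rrp4-2 call was lost without wt replicate 1 (0.0852), wt replicate 3 (0.0871), rrp4-2 replicate 2 (0.0738) or rrp4-2 replicate 3 (0.0601), or with limma-trend on log2(TPM + 1) (0.07). Without wt replicate 2 the log2 difference was 3.49.

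On the strand opposite to RBOHD, a TC of 84 bp with its midpoint in coding exon 2 (chr5:19398401-19398484, minus strand) was higher in both mutants. Its sequence is shown because it is the start of the RNA that overlaps RBOHD, read on the antisense strand and with no motif marked.
RBOHD antisense TC: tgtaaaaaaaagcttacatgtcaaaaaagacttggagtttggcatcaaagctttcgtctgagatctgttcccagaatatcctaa
It belonged to no gene of the table. It held 18, 10 and 12 tags in wt and 31, 30 and 49 in hen2-4 at 10 min, and at 30 min 4, 2 and 12 tags in wt, 25, 43 and 40 in hen2-4 and 49, 47 and 59 in rrp4-2. No wt library reached the level of any mutant library, in CPM, at the same time. The log2 difference was 1.50 ± 0.40 for hen2-4 at 10 min (edgeR adjusted p = 0.0348), 2.43 ± 0.45 at 30 min (adjusted p = 0.00227) and 2.90 ± 0.44 for rrp4-2 (adjusted p = 0.000333). The 10 min call was lost without any single wt library or without hen2-4 replicate 1 or 3, with adjusted p from 0.0701 to 0.137, and without wt replicate 3 at 30 min the 30 min differences were 3.43 and 3.89. There were between 0.0897 and 1.84 antisense tags per 100 sense tags in the wt libraries, and between 1.14 and 5.47 in the mutant libraries. From 10 to 30 min the antisense TC changed by -0.97 ± 0.48 in wt (adjusted p = 0.179) and -0.03 ± 0.37 in hen2-4 (adjusted p = 0.96), while the sense TC rose in both, and the wt value was -1.96 without wt replicate 3 at 30 min (edgeR adjusted p = 0.0101).

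Upstream of APX1 and 297.5 bp from its annotated end, a TC on the minus strand is counted for the neighbouring gene AT1G07885. It held 2, 6 and 0 tags in wt at 10 min and 138, 71 and 33 in hen2-4, then 7, 14 and 12 in wt and 7, 14 and 24 in hen2-4 at 30 min, and 3 of 3 hen2-4 libraries lay above all wt libraries at 10 min. The log2 difference between the genotypes was 5.03 ± 0.72 at 10 min (edgeR adjusted p = 0.000276) and 0.28 ± 0.64 at 30 min (adjusted p = 0.897), and the difference of the time changes, -4.75 ± 0.99, did not pass by edgeR (adjusted p = 0.376) and passed by DESeq2 (-4.87, adjusted p = 0.00226). Without wt replicate 2 at 10 min the difference was 6.31, and without hen2-4 replicate 1, the highest library, it was 4.22. The APX1 main TC in the same 10 min libraries did not differ between the genotypes by the test (log2 0.03 ± 0.22, adjusted p = 0.979).

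**Figure D5:**
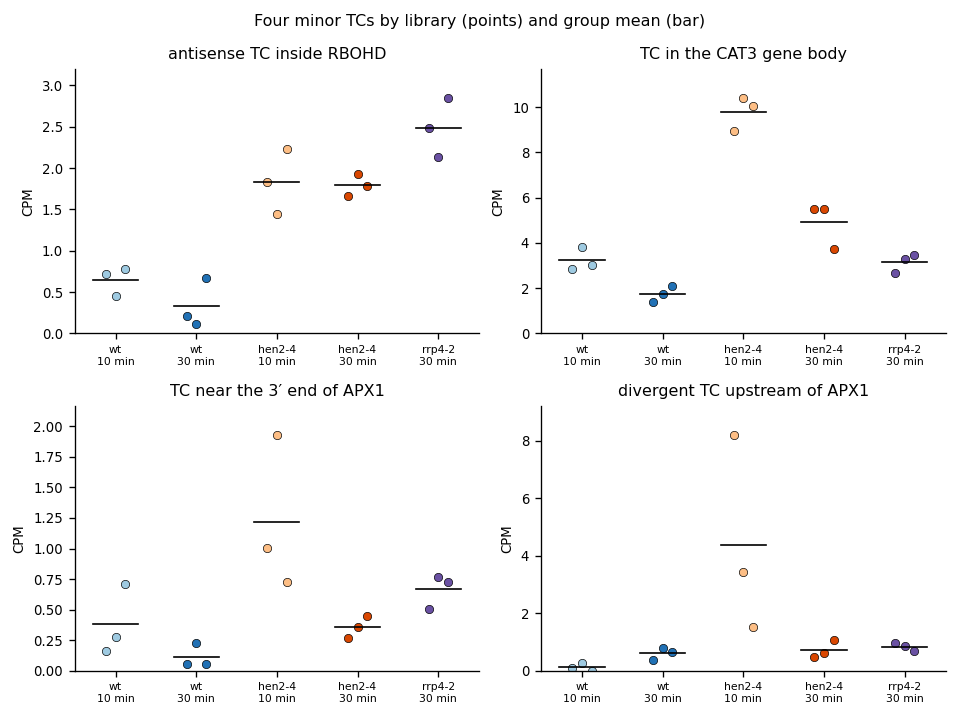
CPM of 4 minor TCs in every library (points, linear axes from 0) with group means (bars): antisense inside RBOHD, in the CAT3 gene body, near the 3′ end of APX1 and divergent upstream of APX1. The first and second are higher in each mutant library than in any wt library of the same time, and the last is highest in the 3 hen2-4 libraries at 10 min.

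Of 71 further genes around these enzymes, in 10 lists, 66 were in the table; 17 rose and 3 fell with time in wt, and 13 rose and 5 fell in hen2-4. Over all tested genes 12.2% rose and 7.72% fell in wt and 12% rose and 9.83% fell in hen2-4, and nothing particular to a list is read from the counts that follow. The lists were drawn up with earlier results of these data known. Among 14 listed receptors, kinases and other regulators that act on or upstream of RBOHD, 5 rose and 0 fell in wt, and 3 rose and 1 fell in hen2-4. Apart from PRX4, GPX7, GPX8, MDAR6, HSFA2, HSP17.6II and HSP101, the genes of these lists named here were chosen after their values were seen. The 3 receptors and kinases past the fold limit in wt were CRK2, BIK1 and BAK1, with log2 changes of 2.23 ± 0.22, 1.76 ± 0.28 and 1.55 ± 0.18. BIK1 phosphorylates RBOHD, and BAK1 is the co-receptor of the flagellin receptor. Of 5 cell wall peroxidases, 4 rose in wt and 2 in hen2-4, led by PRX4 with 4.55 ± 0.41 in wt and 3.98 ± 0.40 in hen2-4 (edgeR adjusted p = 1.2e-06 and 5.4e-06).

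Of 8 heat and peroxide response genes, 5 rose in wt and 4 in hen2-4. The small heat shock gene HSP17.6II stood at 1.35, 2.72 and 2.21 CPM in wt at 10 min and at 323, 462 and 1117 CPM at 30 min (log2 8.25 ± 0.90), HSFA2 changed by 5.49 ± 0.52 and the disaggregase gene HSP101 by 4.64 ± 0.28. HSP101 held 206, 238 and 359 CPM in wt at 30 min, so wt replicate 3 was the highest of its group for HSP17.6II, HSP101 and HSFA2, as it was for APX2. That library was also the highest of its group for the other genes of this list, and for RBOHD, RBOHF, APX1, CAT1 and CAT3. RBOHB, RBOHC and CAT2 did not peak in it. Without that library the log2 change was 7.55 for HSP17.6II and 4.61 for HSFA2, and without hen2-4 replicate 3 at 10 min the hen2-4 change of HSP17.6II was 7.82 in place of 6.35. Among 6 further genes that carry the name of an ascorbate peroxidase, whatever their activity, 0 rose and 1 (APX4) fell in each genotype. Among 7 measured superoxide dismutases, which make hydrogen peroxide from superoxide, 1 rose in each, CSD1 in wt and FSD2 in hen2-4. The CSD1 change was 1.46 on the log2 scale and 0.45 without wt replicate 3 at 30 min (edgeR adjusted p = 0.331). Among 7 glutathione peroxidases 0 passed in wt, and GPX7 and GPX8 fell in hen2-4 by 1.52 and 1.07 on the log2 scale (edgeR adjusted p = 0.0336 and 0.0248). Both calls were lost on leaving out single hen2-4 libraries, with adjusted p up to 0.137 and 0.0885. Among 10 reductases that restore ascorbate and glutathione, 1 rose (MDAR2) and 1 fell (GR2) in wt, and 2 rose (MDAR2 and DHAR2) in hen2-4. The calls of APX4 in both genotypes, GR2 in wt and DHAR2 in hen2-4 were also lost on leaving out single libraries. The same held in wt for the cell wall peroxidase genes PRX33 and PRX5 (edgeR adjusted p up to 0.113 and 0.0543). It also held in wt for PBL1 of the RBOHD list (0.0588) and HSFA4A of the heat and peroxide list (up to 0.147). In hen2-4 it held for BIK1 (up to 0.173). The reductase gene MDAR6 was lower in hen2-4 than in wt at 10 min (log2 -1.09 ± 0.19, edgeR adjusted p = 0.00626) and in rrp4-2 (-1.19 ± 0.19, adjusted p = 0.00171). At 30 min MDAR6 was also lower in hen2-4 than in wt (log2 -0.81, edgeR adjusted p = 0.0462). That call was lost on leaving out single libraries, with adjusted p up to 0.161. Of 5 genes of the glycolate oxidase family, whose enzymes make peroxisomal hydrogen peroxide, 0 rose and 1 fell in each genotype. The gene that fell, HAOX2, is named for a hydroxy-acid oxidase of that family rather than for a glycolate oxidase proper. Its wt call was lost without wt replicate 3 at 10 min (edgeR adjusted p = 0.0601). Its hen2-4 call was lost without hen2-4 replicate 3 at 30 min (0.0607). LSD1, a listed catalase partner, rose in each genotype, and the other gene of that list passed in neither. Neither of the 2 further oxidase genes in the table, out of 5 listed, passed the test.

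The genes whose levels followed each member most closely were found by Pearson's r of log2(CPM + 1) over the 15 libraries, among 10568 genes with a mean of at least 10 CPM; the 15 libraries share groups, depth and processing, so these values are a description. RBOHD was most like CRK14 (r = 0.97), AT3G04220 (0.96) and SOUL-1 (0.96), APX1 like AT4G23470 (0.97), PHB2 (0.96) and TXR1 (0.96), and CAT2 like AT2G21960 (0.97), AT5G57040 (0.95) and HCF244 (0.94). The closest genes to RBOHC, RBOHF, CAT1 and CAT3 were AT3G52870 (0.89), ASG1 (0.90), AT5G14450 (0.90) and AT3G44370 (0.86).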

How the data were processed

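CAGE tags of 15 libraries (5 groups of 3 pools) were analysed. The authors trimmed and quality-filtered reads, mapped them to TAIR10 with Bowtie 1.1.2, kept reads with a single position and joined 5′ ends into TCs. The deposited count tables hold raw tags per TC and per gene. The deposited TPM values, which the authors scaled to a library total of 1000000, entered an alternative only. Of the columns in each file, 9 matched no labelled sample and were not used. Reads from stretches that paralogues share are absent from the counts.

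edgeR 4.0.16 (R 4.3.3; TMM, filterByExpr, quasi-likelihood test, 5 group coefficients) was fitted to each whole count table, with adjusted p at most 0.05. TCs were tied to genes where runs of TCs on a strand summed to the gene's counts. limma 3.58.1 gave voom and diffSplice, and DESeq2 1.42.0 was an alternative, as were other scalings, no filter, the compared groups alone, a replicate block and each library left out. The script was tested on simulated data. The members and lists were chosen with earlier results of these data known. All listed genes are named; those past the limit are given in every library. From the further lists, called genes with the 3 largest changes per comparison and direction and at least 1 CPM may be named, and other names were chosen after their values were seen. Intervals cover counting error only.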

Additional observations from a re-analysis of the deposited data

Results flagged for a closer look

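The divergent TC upstream of APX1, counted for AT1G07885, had fitted time changes of opposite sign in the 2 genotypes: every wt library at 30 min lay above every wt library at 10 min (log2 change 2.20 ± 0.81, edgeR adjusted p = 0.07, which did not pass), and every hen2-4 library at 30 min lay below every hen2-4 library at 10 min (-2.55 ± 0.58, adjusted p = 0.00573). The hen2-4 change was -1.73 without replicate 1 at 10 min (adjusted p = 0.0512). The wt change passed under 5 of 23 alternatives, among them DESeq2 (2.27, adjusted p = 0.0232). The difference of the changes, hen2-4 minus wt, was -4.75 ± 0.99 on the log2 scale, with an unadjusted p of 0.000199 and an adjusted p of 0.376 by edgeR, so it did not pass over all TCs, while DESeq2 gave -4.87 (adjusted p = 0.00226). The wt libraries at 10 min held 2, 6 and 0 tags, and the hen2-4 libraries 138, 71 and 33.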

How the results depend on the processing

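Counts of genes and TCs past both limits (adjusted p and a doubling) were refitted under each alternative, and no change of these genes or TCs that had passed reversed its direction. Among the 9 genes, the wt time count of 3 became 5 on library sizes alone and 5 with no fold limit, and ran from 3 to 4 on leaving out a library. The hen2-4 time count of 4 became 2 on library sizes alone and 2 with limma-trend on log2(TPM + 1) or log2(TPM + 0.1), and ran from 2 (without hen2-4 replicate 2 at 10 min) to 4. Library sizes alone moved the median of all genes to -0.25 in wt and -0.24 in hen2-4. Changes that had not passed did turn: with time, CAT1 in wt (0.06) went to -0.22 and RBOHF in hen2-4 (0.18) to -0.06 on library sizes alone, and RBOHC in hen2-4 (0.27) to -0.02 with limma-trend; without 1 library, CAT3 in hen2-4 (-0.12) went to 0.18 and the RBOHD difference of time changes (-0.11) to 0.25. For hen2-4 against wt at 10 min the count of 0 became 1 with DESeq2, and ran from 0 to 1 (without wt replicate 3 at 30 min).

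Among the TCs, the wt time count of 6 became 10 on library sizes alone and 12 with no fold limit (5 to 8 on leaving out a library), and the hen2-4 time count of 11 became 6 with limma-trend on log2(TPM + 1) (6 to 13). For hen2-4 against wt, the 10 min count of 1 became 2 with DESeq2, library sizes alone, limma voom or log2(TPM + 0.1) (1 to 2), and the 30 min count of 1 became 2 with no fold limit (1 to 3). For rrp4-2 against wt the count of 1 became 2, 0 and 3 on library sizes alone, with log2(TPM + 1) and with no fold limit (0 to 1). TC use went from 0 calls to 5 when all TCs entered, 3 of them for the APX1 TC at 2113 bp and 2 for the CAT3 TC at 1145.5 bp. Among all 8204 TCs then tested, 24 of them in these genes, the calls numbered 393 and 479 with time in wt and hen2-4 (0 and 1 in these genes), 164 and 76 for hen2-4 against wt at 10 and 30 min (2 and 1) and 163 for rrp4-2 against wt (1). The 4 antisense and upstream calls between genotypes ran from 3 to 4. The fall with time in hen2-4 of the TC upstream of APX1 was a further call, given above.

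The replicate numbers did not pair the libraries: same-numbered libraries had correlations of deviations from -0.40 to 0.46 (median 0.03), and 6 of 15 correlated best with their own number. With a replicate block the TC count for hen2-4 against wt at 10 min was 2 in place of 1, for hen2-4 with time 12 in place of 11, and the other counts were as without it. Depth limits the rare TCs and APX2, since 3 tags were between 0.119 and 0.204 CPM.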
